A study of Homo sapiens with 238 samples.

Results

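Cholesterol and fatty acids are made from acetyl-CoA by enzymes whose genes are read together under the SREBP transcription factors, and 29 such genes were followed here in every RNA-seq library of K562 lines edited at globin enhancers. The members were taken by symbol, all 29 of 29 were found among the 62696 genes of the count tables, and all 29 passed the minimum mean of 10 counts in each fit. They comprise 7 genes of the mevalonate branch, 3 that make squalene and lanosterol, 8 that turn lanosterol into cholesterol, 4 regulators and carriers, and 7 genes of fatty acid synthesis, elongation and desaturation. K562 is a human erythroleukemia line, and poly(A) RNA was sequenced in 62 libraries of 12 lines, 43 of the α series and 19 of the β series. In the α series, αMut1 (7 libraries) and αMut2 (4) are single-cell clones with a mutated G-quadruplex (G4), a four-stranded fold of G-rich DNA, in the α-globin enhancer HS-40. αRes1 (8), αRes2 (8), αRes3 (4) and αRes4 (4) are clones in which an unrelated G4 was put into HS-40 of αMut1, and αWT (8) is unedited. In the β series, βMut1 (4) and βMut2 (4) are clones with a mutated G4 in the β-globin enhancer HS2, βMut-HS3Δ (3), made from βMut1, also carries a deletion of the enhancer HS3, WT-HS3Δ (4) carries the deletion alone, and βWT (4) is unedited. The labels name no treatment, and all lines grew in RPMI1640 medium with fetal bovine serum. Each edited genotype is represented by 1 or a few clones, grown from single sorted cells, so within 1 clone an effect of the edit and a difference between clones cannot be told apart.

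As background, SREBP precursors sit in the membrane of the endoplasmic reticulum, where INSIG1 and its relative INSIG2 hold them back while sterols are plentiful. When sterols fall, the precursors move to the Golgi, are cut, and the freed part enters the nucleus and switches on the enzymes of the pathway. SREBF2 codes for the factor best known for sterol genes and SREBF1 for those best known for fatty acid genes, and both act together with the factors NF-Y and Sp1. INSIG1 is itself a target, so the pathway damps its own activity.

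Before the comparisons, libraries that stood apart within their own line need to be described. Library totals ran from 4270215 to 48671570 counts, the lowest being αRes2 replicate 3, and the erythroid genes GATA1 (191 to 384 counts per 1000000, CPM) and TAL1 (87.6 to 234 CPM) were high in 62 of 62. Of 7 erythroid genes the summed level was 891 to 2316 CPM in the α series and 1006 to 1966 CPM in the β series, and HBE1 alone fell to 3.20 CPM. The summed level of 5 lymphoid genes lay between 5.72 and 25.4 CPM in the α series and between 7.03 and 82.7 CPM in the β series. That of 5 monocyte and granulocyte genes lay between 10.2 and 219 and between 3.78 and 37.3 CPM. For 5 fibroblast and epithelial genes it was 271 to 404 and 319.6 to 502 CPM, and for 3 hepatocyte genes at most 2.11 CPM. Single genes held much of these sums: CD3D reached 79.85 CPM, LYZ 219 CPM, KRT18 182 to 339 CPM and EPCAM 27.5 to 145 CPM. COL1A1 reached 55.6 CPM, and DCN was at most 0.47 CPM. In αWT, αMut1, αRes1 and αRes2 the replicate numbers 1 to 4 and 5 to 8 formed separate sets with different member levels, and the labels do not say what the sets are. Another division runs across these sets: 16 libraries (numbers 5 to 8 of αRes1 and αRes2, and all of αRes3 and αRes4) hold 4570 to 19711 counts on 5 pseudoautosomal genes, and the other 46 at most 1. The labels name only hg38 and do not say what this division is. Whatever separates the 16 libraries and these lines or sets cannot be told apart. NSDHL, on the long arm of the X chromosome (chromosome X, 152830967 to 152869729 in hg38, plus strand), had 103 expressed neighbours within 5 Mb on either side whose median level against αWT was -0.91 to -0.89 in αMut1 numbers 1 to 4, -0.82 to -0.75 in αRes1 numbers 5 to 8, -0.74 to -0.65 in αRes3 and -0.72 to -0.66 in αRes4 on the log2 scale. It was 0.085 to 0.14 in αMut1 numbers 5 to 7 and 0.020 to 0.049 in αRes1 numbers 1 to 4, so libraries of 1 line differed over the whole stretch around this gene. There, αMut1 numbers 1 to 4 resembled αRes1 numbers 5 to 8, and αMut1 numbers 5 to 7 resembled αRes1 numbers 1 to 4. Whether the sets of these lines are exchanged was not tested and is not settled by the labels, and every value of αMut1 and αRes1 rests on the labels as given. In the β series, libraries numbered 1 departed together from the rest of their lines. IDI1, MSMO1, SC5D and ELOVL6 were lowest in number 1 of all 5 lines, and LSS, DHCR7, SREBF1, SREBF2, SCD and FADS2 were highest in number 1 of all 5. Counts of a few members may include or lose reads shared with other genes: 2 protein-coding gene models on the same strand cover 68.2% and 67.8% of the exon bases of CYP51A1, another covers 36.4% of EBP, and FADS1 and FADS2 overlap over 490 bases on opposite strands. How shared reads were assigned is not stated. IDI1, FDPS, CYP51A1, HSD17B7 and SCD also have named pseudogenes, whose reads may be mixed with theirs.

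Per kilobase of exon, SCD, which puts the double bond into stearate, was the highest member in both unedited lines, with a mean of 133 CPM per kb in αWT and 206 in βWT. In αWT it was followed by FASN, the fatty acid synthase itself, at 117, and ACLY, which supplies acetyl-CoA from citrate, at 90.4 CPM per kb. In βWT the next places were held by FDFT1, the squalene synthase, at 166, and FADS1, a desaturase of polyunsaturated fatty acids, at 131 CPM per kb. The lowest members were HSD17B7 in αWT at 2.56 and FADS2 in βWT at 5.11 CPM per kb, and TM7SF2, MVK, SC5D and CYP51A1 joined them at or below 10.7 in both lines. All further levels are CPM on TMM-scaled library sizes, scaled within each series, and compare 1 gene between libraries.

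Promoter windows of 300 bases, 250 before and 50 after the start site, were found for 25 of 29 members in RefSeq (GRCh38.p14), the others being ACAT2, FDFT1, SQLE and FASN. The CCAAT box bound by NF-Y (letters CCAAT) occurred on either strand in 17 of the 25 (68.0%), against 34.6% of 35116 promoters, and the Sp1 box (GGGCGG) in 23 (92.0%) against 45.0%. The sterol regulatory element in the strict form TCACNCCAC was present in 1 member, SREBF2 (4.0% of the 25, against 1.13% of all). All motifs were searched on both strands, also where they overlapped. The matches are letters in a window and not measured sites, and an absent match says only that the strict letters are missing there. The SREBF2 window is shown because it is the only one with the element, and the capitals mark it on chr22:41832855-41833154, plus strand.
SREBF2: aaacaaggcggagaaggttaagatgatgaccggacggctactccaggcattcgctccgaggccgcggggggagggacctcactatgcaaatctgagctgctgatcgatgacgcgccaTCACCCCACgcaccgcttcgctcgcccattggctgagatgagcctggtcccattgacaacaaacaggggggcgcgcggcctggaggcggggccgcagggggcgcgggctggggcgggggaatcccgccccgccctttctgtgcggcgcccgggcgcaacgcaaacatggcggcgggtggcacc

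**Figure D1:**
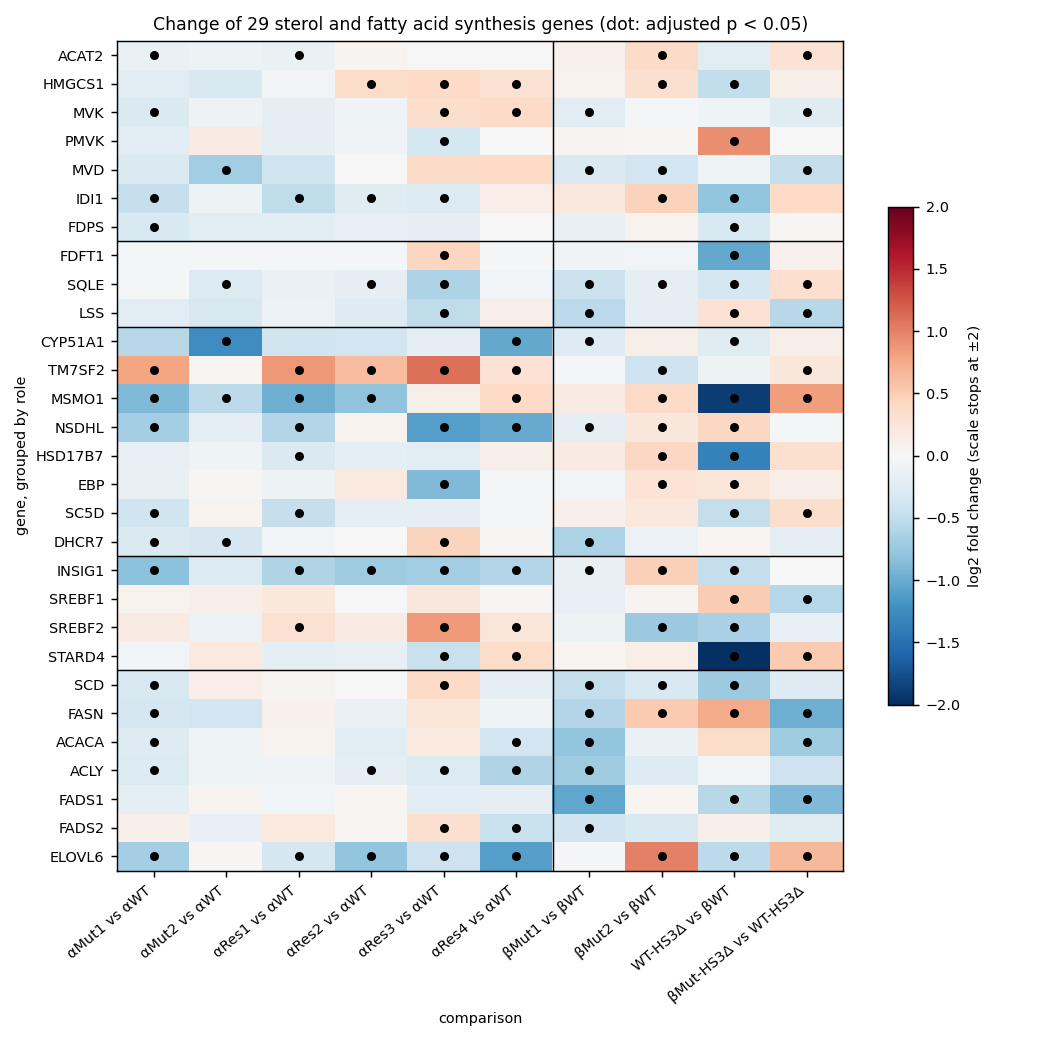
Log2 fold changes of the 29 genes (rows, grouped by role) in 10 comparisons (columns), with red for higher and blue for lower in the first-named line and a dot where the adjusted p was below 0.05. Dots lie on blue cells for 14 of 29 genes in each of the αMut1 and βMut1 columns, and for 1 gene on a red cell in the αMut1 column. The deepest blue lies at STARD4 (log2 -2.26) and MSMO1 (log2 -1.89) in WT-HS3Δ.

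The first HS-40 G4 mutant clone had lower levels of genes of the mevalonate branch, of the steps after lanosterol and of fatty acid synthesis. In αMut1 against αWT, 14 of 29 members were lower and 1 higher, beside 21.5% and 21.8% of all genes tested, and the median log2 fold change of the members was -0.26 against -0.031 over all genes. The 14 comprised 4 of 7 genes of the mevalonate branch, 4 of 8 from lanosterol to cholesterol, 5 of 7 of fatty acid synthesis and INSIG1, while none of the 3 squalene and lanosterol genes passed. MSMO1, an oxidase that removes methyl groups from lanosterol derivatives (chromosome 4, 165327667 to 165343164 in hg38, plus strand), had a lowest, median and highest level of 26.2, 30.8 and 34.2 CPM in αMut1, against 49.4, 57.9 and 61.6 CPM in αWT. The ranges did not overlap, and the log2 fold change was -0.88 ± 0.12 (SE; adjusted p = 9.71e-08), while its neighbours within 5 Mb had a median of -0.051. Values after gene names in brackets are log2 fold changes from here on, with their SE after ±. INSIG1, the brake on SREBP processing, had 122, 128 and 170.4 CPM in αMut1 and 167, 245 and 339 CPM in αWT (log2 fold change -0.82 ± 0.17, adjusted p = 0.000101). The ranges touched. Against numbers 1 to 4 of its line, INSIG1 was lower in αWT numbers 5 to 8 and higher in αMut1 numbers 5 to 7. TM7SF2, a sterol reductase that shares its step with LBR, was the member that was higher, with 28.2, 32.3 and 39.8 CPM in αMut1 and 16.6, 19.5 and 21.7 CPM in αWT and no overlap (0.79 ± 0.11, adjusted p = 1.12e-07). In bulk RNA, a change of the level per cell and a change of the share of cells that hold the RNA cannot be told apart.

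NSDHL, a dehydrogenase of the same demethylation steps as MSMO1, had 24.0, 27.1 and 69.8 CPM in αMut1 and 65.3, 68.9 and 78.9 CPM in αWT (-0.69 ± 0.22, adjusted p = 0.00906). Its αMut1 values split into 4 libraries near the lower end and 3 near the αWT range, as did its neighbours, and their part in the result was not tested. ELOVL6, which lengthens palmitate, had 55.2, 83.6 and 87.4 CPM in αMut1 and 84.3, 113 and 151 CPM in αWT (-0.67 ± 0.13, adjusted p = 5.23e-05), with each set of αMut1 below its own αWT set and a neighbour median of -0.26. IDI1, the isomerase of the isoprene units, had 87.5, 93.9 and 107 CPM in αMut1 and 121, 136 and 151 CPM in αWT, again without overlap (-0.47 ± 0.080, adjusted p = 7.98e-06). Of the rest, SC5D, FASN, SCD, FDPS, DHCR7, MVK, ACLY, ACACA and ACAT2 were lower, with log2 values between -0.40 and -0.13. Within numbers 5 to 8 alone MVK (0.0015), FDPS (0.036) and SCD (0.11) were above 0 and did not pass. Of the 32 other pathway genes, 4 were higher and 7 lower and 4 were too low to test. Among those that passed were ACACB, the mitochondrial acetyl-CoA carboxylase (1.86), and the lipoprotein receptor gene LRP8 (-0.69).

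The count of lower members depended on the set of replicate numbers. Within numbers 1 to 4, 23 of 29 members were lower and 1 higher in αMut1 than in αWT (29.5% and 29.5% of all genes), with a member median of -0.42. Within numbers 5 to 8, 7 were lower and 6 higher (25.9% and 27.7% of all genes), with a member median of -0.068. Calls in the same direction in both sets were made for 6 members, MSMO1, IDI1, SC5D, INSIG1 and ELOVL6 lower and TM7SF2 higher, which is 6 of the 24 calls of the first set and 6 of the 13 of the second. SQLE, EBP and FADS2 were lower in numbers 1 to 4 and higher in numbers 5 to 8. Of the members 20.7% thus passed in the same direction in both sets and 10.3% in opposite ones, beside 27.7% and 7.63% of the 17697 genes tested in both. In a fit with line and set together, added after seeing the data, the effect of αMut1 differed between the sets for 18 of 29 members. It was higher in numbers 5 to 7 for 17 of them, beside 24.8% of all genes, and lower for HSD17B7. The difference was 1.27 ± 0.10 for NSDHL, 1.16 ± 0.10 for INSIG1, 0.94 ± 0.18 for CYP51A1, the lanosterol demethylase, and 0.76 ± 0.096 for SCD on the log2 scale (SE). For MSMO1 it was 0.25 ± 0.13 and did not pass (adjusted p = 0.124).

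**Figure D2:**
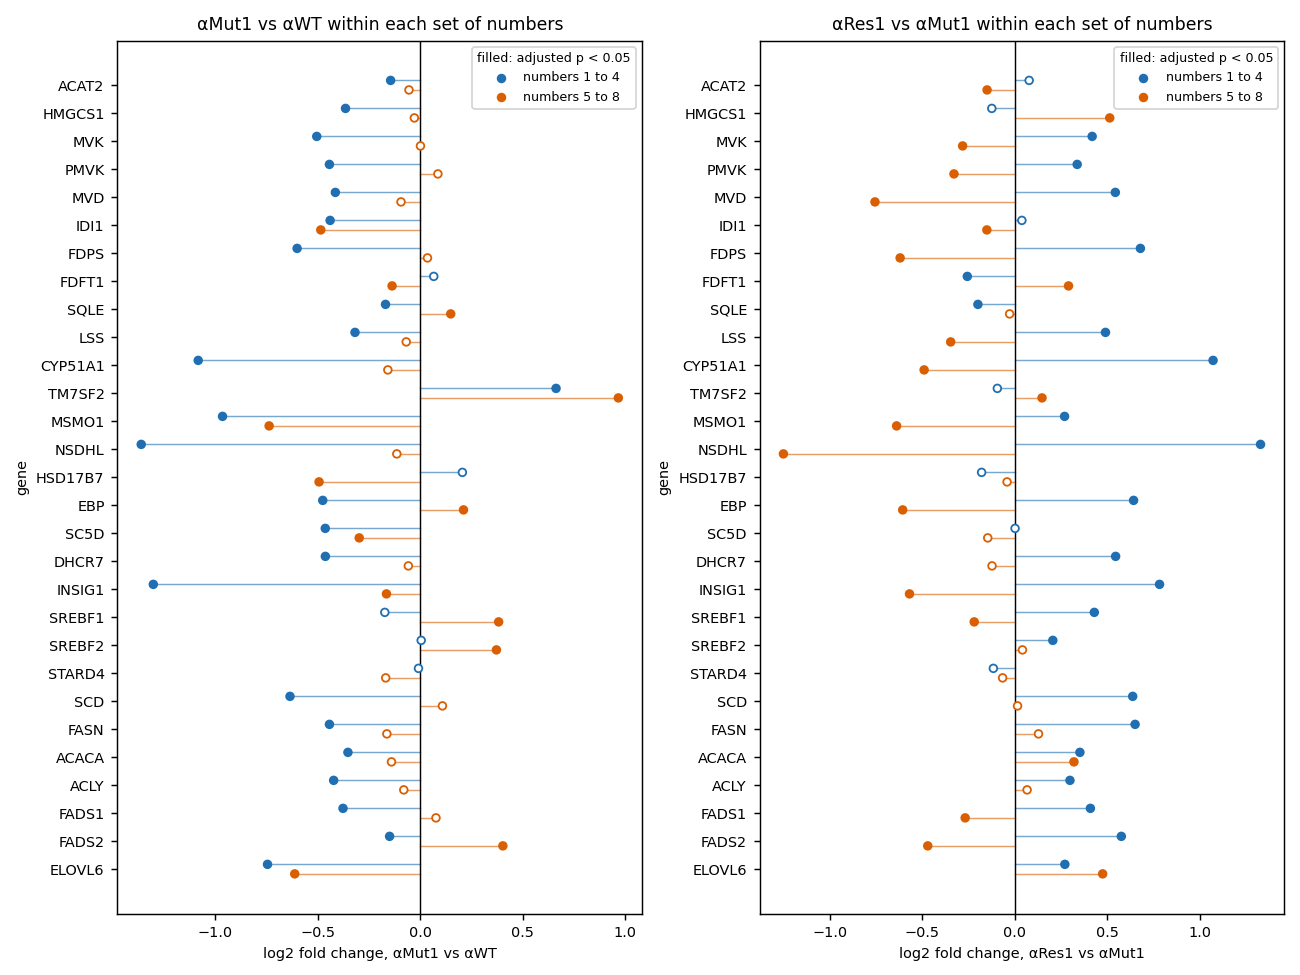
Log2 fold changes of the 29 genes (rows) within replicate numbers 1 to 4 (blue) and 5 to 8 (orange), for αMut1 vs αWT (left) and αRes1 vs αMut1 (right), with filled points at an adjusted p below 0.05. On the left 23 blue points are filled below 0 and 7 orange ones, and on the right 20 blue points are filled above 0 and 15 orange ones below 0.

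In αMut2, the second HS-40 clone, 5 of 29 members were lower than in αWT, a share little above that of all genes. All 5 were genes of sterol synthesis, 0 members were higher, and the shares of all genes were 13% lower and 11.6% higher. The lower count was 4 when any 1 of the αMut2 libraries was left out (7.78% to 12.2% of all genes). It was 2 without the filter on low counts (3.87%), and 8 members had an unadjusted p below 0.05. DESeq2 also gave 0 higher. CYP51A1 had 5.37, 5.59, 5.54 and 5.66 CPM in the 4 αMut2 libraries, against 8.38, 12.0 and 18.1 CPM (lowest, median and highest) in αWT, without overlap (-1.24 ± 0.31, adjusted p = 0.00259). The median change of its 47 neighbours within 5 Mb was -0.31. MVD, the mevalonate decarboxylase, had 66.3, 68.0, 63.5 and 66.6 CPM in αMut2 and 67.8, 109 and 140.1 CPM in αWT (-0.69 ± 0.21, adjusted p = 0.0124), and its high αWT values came from numbers 5 to 8. MSMO1 had 42.4, 42.04, 37.6 and 36.8 CPM in αMut2, below every αWT library (-0.52 ± 0.14, adjusted p = 0.00583). DHCR7, which makes cholesterol from its last precursor, had 159.9, 168, 162 and 161 CPM in αMut2 and 178, 205 and 230.1 CPM in αWT, again apart (-0.34 ± 0.12, adjusted p = 0.0375). In αMut1, DHCR7 had 137, 148 and 207 CPM and overlapped αWT (-0.29 ± 0.10, adjusted p = 0.0184). MSMO1 and DHCR7 passed in both clones, which share the αWT libraries. In αMut1, MSMO1 passed as lower within both sets of numbers, and DHCR7 did not. DHCR7 had 207, 204 and 199 CPM in αMut1 numbers 5 to 7 and 206, 230, 220 and 195 CPM in αWT numbers 5 to 8. SQLE, the squalene epoxidase, was lower as well (-0.27 ± 0.074). Within numbers 1 to 4 the count of lower members was 11 (15.4% of all genes). Among the other pathway genes, of which 10 were higher and 2 lower of 32, ACSL1, which activates long-chain fatty acids, was higher (0.60) and HSD17B12, a reductase of fatty acid elongation, lower (-1.04).

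The direct comparison of the clones found 7 members higher and 3 lower in αMut2 than in αMut1, beside 18.3% and 19.3% of all genes. The 7 were ELOVL6 (0.70), INSIG1 (0.55), SC5D, SCD, PMVK, IDI1 and MSMO1, and the 3 were TM7SF2 (-0.74), SREBF2 and SQLE. ELOVL6 had 119, 124, 117 and 117 CPM in αMut2 and 55.2, 83.6 and 87.4 CPM in αMut1, and TM7SF2 had 19.5, 19.8, 21.4 and 19.6 CPM in αMut2 and 28.2, 32.3 and 39.8 CPM in αMut1, both without overlap. MSMO1 was lower than in αWT in both clones and higher in αMut2 than in αMut1. Without αMut2 replicate 2 the higher count was 3 (14.2% of all genes), and without αMut2 replicate 3 the lower count was 1 (14.6%). Within numbers 1 to 4 it was 15 higher and 3 lower (24.8% and 27.3% of all genes).

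**Figure D3:**
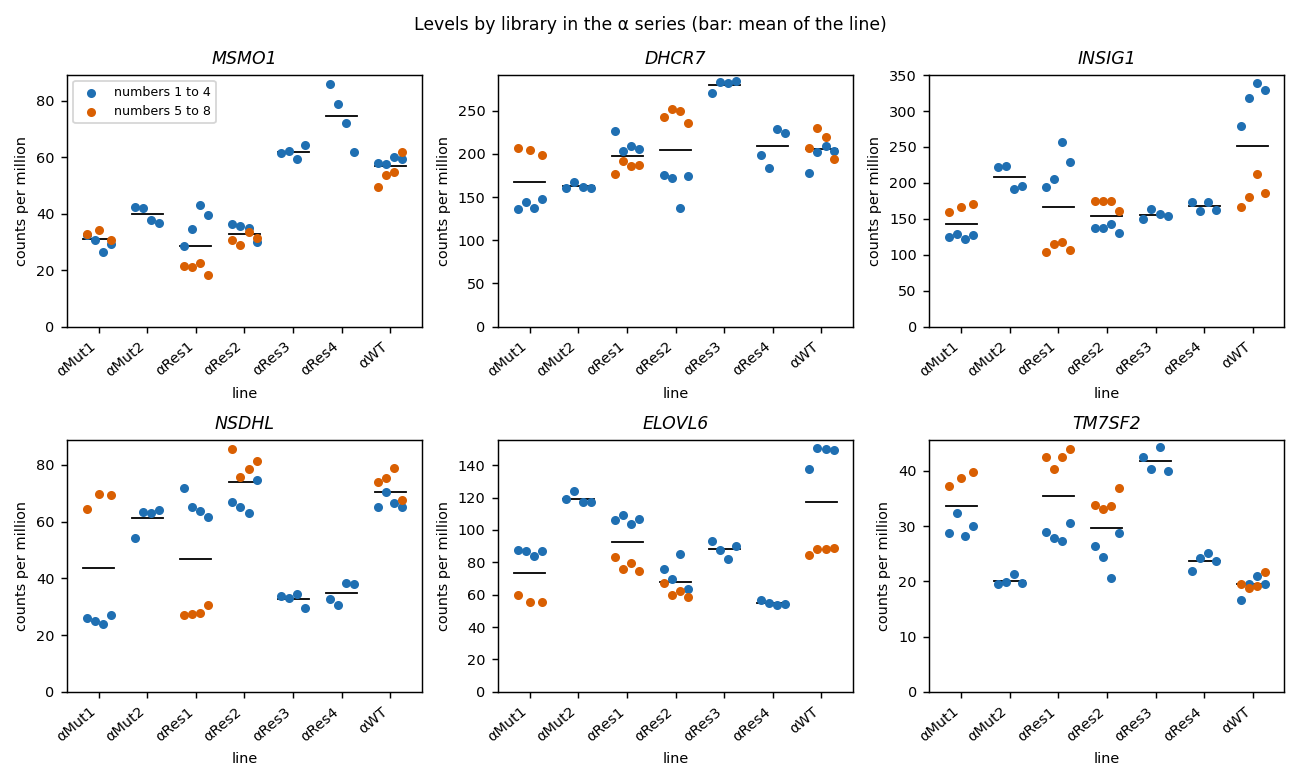
Levels in CPM (y axis, from 0) of 6 genes in every library of the 7 α lines (x axis), blue for replicate numbers 1 to 4, orange for 5 to 8, bars for line means. MSMO1 lies at 30.9 CPM on average in αMut1 and 39.7 in αMut2 against 56.8 in αWT, whereas NSDHL falls into 2 separate levels within αMut1 and within αRes1.

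The αRes clones, made from αMut1 and carrying another G4 at HS-40, were set against αWT and against αMut1. Against αWT, αRes1 had 2 members higher and 8 lower (21% and 18.5% of all genes), and αRes2 had 2 higher and 6 lower (19.3% and 19.3%). MSMO1 had 18.3, 25.5 and 43.1 CPM in αRes1 and 28.7, 32.4 and 36.4 CPM in αRes2 (lowest, median and highest), both below every αWT library (-0.98 ± 0.11 and -0.80 ± 0.11 on the log2 scale, adjusted p = 4.48e-09 and 4.81e-07). TM7SF2 was higher in both, at 27.3, 35.5 and 44.04 CPM in αRes1 and 20.7, 30.9 and 36.9 CPM in αRes2, against 16.6, 19.5 and 21.7 CPM in αWT (0.86 and 0.61). INSIG1, IDI1 and ELOVL6 were lower in each, at log2 values of -0.60, -0.51 and -0.34 in αRes1 and of -0.71, -0.24 and -0.80 in αRes2. In αRes2, INSIG1 did not pass as lower within both sets. Within numbers 5 to 8 it had 175, 175, 175 and 160 CPM in αRes2 and 167, 181, 212 and 187 CPM in αWT. Opposite calls in the sets were made for FDFT1 and HMGCS1 in αRes1. In αRes2 they were made for DHCR7, FADS1, MVK, SCD and SREBF1, and the share of all genes was not counted. The other changes were NSDHL, SC5D, HSD17B7 and ACAT2 lower and SREBF2 higher in αRes1, and HMGCS1, the HMG-CoA synthase, higher (0.37) and SQLE and ACLY lower in αRes2. Some of these did not hold in 1 set alone, where none of the following passed: HSD17B7 in αRes1 (0.027) and HMGCS1 in αRes2 (-0.017) within numbers 1 to 4, and SQLE (0.051) and ACLY (0.070) in αRes2 within numbers 5 to 8. In both clones ACACB was higher (1.98 in αRes1 and 1.55 in αRes2) and LRP8 lower (-0.66 in αRes1 and -0.69 in αRes2). Within numbers 1 to 4, αRes1 had 4 members higher and 8 lower (16.5% and 18.6% of all genes), and within numbers 5 to 8 it had 6 higher and 17 lower (33.3% and 33.3%). For αRes2 these were 1 higher and 16 lower (26.3% and 26.3%) within numbers 1 to 4, and 10 higher and 7 lower (28.5% and 28.5%) within numbers 5 to 8.

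Against αMut1, their parent, 1 member was higher and 0 lower in αRes1 (1.51% and 3.48% of all genes), and 6 members had an unadjusted p below 0.05. By DESeq2, 2 were higher and 0 lower. The higher member was ACACA, the cytosolic acetyl-CoA carboxylase, with 254, 285 and 335 CPM in αRes1 and 217, 229 and 252 CPM in αMut1 (0.34 ± 0.094, adjusted p = 0.0242). This low count stood over sets that went opposite ways: 20 members were higher and 2 lower in αRes1 within numbers 1 to 4 (26% and 28.8% of all genes), and 5 higher and 15 lower within numbers 5 to 8 (23.9% and 22.6%). NSDHL had 72.0, 65.0, 63.8 and 61.6 CPM in αRes1 numbers 1 to 4 and 25.9, 25.1, 24.0 and 27.1 CPM in αMut1 numbers 1 to 4. In αRes1 numbers 5 to 8 it had 27.2, 27.4, 27.9 and 30.6 CPM and in αMut1 numbers 5 to 7 64.5, 69.8 and 69.3 CPM, so the order of the lines turned round between the sets. FDPS, which makes farnesyl pyrophosphate, had 187, 183, 183 and 183 and 122, 127, 123 and 131 CPM in these αRes1 sets, against 105, 119, 106 and 119 and 189, 194 and 203 CPM in those of αMut1. In all, 14 members passed in opposite directions in the 2 sets, 14 of the 22 calls of the first and of the 20 of the second, and ACACA and ELOVL6 were higher in both. That is 48.3% of the members in opposite directions and 6.90% in the same one, beside 30.0% and 2.90% of the 17697 genes tested in both sets. These values take the set labels of αMut1 and αRes1 as given, and whether they are exchanged was not tested.

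In αRes2, 6 members were higher than in αMut1 and 0 lower (8.36% and 10.5% of all genes), with 9 at an unadjusted p below 0.05, and DESeq2 gave 6 higher and 0 lower. They were NSDHL, HMGCS1, EBP, DHCR7, IDI1 and ACAT2. HMGCS1 had 171, 198 and 218 CPM in αRes2 and 112, 139 and 151 CPM in αMut1, without overlap (0.59 ± 0.11, adjusted p = 0.000172). Same-numbered libraries of these lines deviated together through the sets, but not around the mean of each line and set (correlations -0.210 to 0.105). With the replicate number as a block 8 were higher and 1 lower (10.7% and 12.4% of all genes). HMGCS1, IDI1, DHCR7 and NSDHL were higher and TM7SF2 lower within both sets, 17.2% of the members, beside 12.2% of all genes with the same direction in both. Numbers 1 to 4 gave 11 higher and 4 lower (17.9% and 20.6% of all genes), and numbers 5 to 8 gave 9 higher and 3 lower (16.4% and 18.1%).

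In αRes3 and αRes4 members were changed in both directions, with shares close to those of all genes in αRes3 and below them in αRes4. αRes3 had 8 members higher and 10 lower than αWT (27% and 29.1% of all genes), and αRes4 had 6 higher and 7 lower (29.2% and 29.2%). SREBF2, the sterol gene activator, had 329, 338, 345 and 353 CPM in αRes3, against 175, 193 and 197 CPM (lowest, median and highest) in αWT, above its range (0.85 ± 0.097, adjusted p = 1.31e-09). TM7SF2 was higher by 1.10 ± 0.12 and DHCR7 by 0.45 ± 0.12 in the same clone, while MSMO1 did not pass, with 61.3, 62.2, 59.4 and 64.2 CPM. NSDHL was lower, at 33.9, 33.2, 34.5 and 29.6 CPM in αRes3 (-1.10). EBP, a sterol isomerase, had 43.3, 40.6, 40.7 and 40.3 CPM in αRes3 and 71.7, 75.5 and 84.9 CPM in αWT (-0.89). SQLE had 129, 134, 132 and 137 CPM in αRes3 and 170.5, 208 and 232 CPM in αWT (-0.62). The neighbours of NSDHL within 5 Mb had a median of -0.72 and those of SQLE, 48 genes, one of -0.64, so both genes lay in stretches that were lower as a whole, and the part of these stretches in the result was not tested. EBP had neighbours with a median of -0.20.

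In αRes4, ELOVL6 had 56.8, 55.1, 53.4 and 54.3 CPM, below the 84.3, 113 and 151 CPM (lowest, median and highest) of αWT (-1.09 ± 0.16, adjusted p = 3.06e-07). CYP51A1 was lower too, at 5.86, 4.62, 7.07 and 8.31 CPM (-1.02), as was NSDHL at 32.6, 30.5, 38.4 and 38.1 CPM (-1.01, neighbours -0.68). ACLY had 284, 246, 349 and 363 CPM in αRes4, below the 380.1, 477 and 516 CPM of αWT (-0.60 ± 0.088, adjusted p = 2.66e-07), and ACACA (-0.39) and FADS2 (-0.45) were lower as well. MSMO1, lower than αWT in αMut1, αMut2, αRes1 and αRes2, was higher here, with 85.8, 78.7, 72.2 and 61.7 CPM in αRes4 (0.39 ± 0.14, adjusted p = 0.0123). The higher count for αRes4 fell to 3 without αRes4 replicate 1, and to 2 without replicate 3 or 4 (26.4%, 27.5% and 28.1% of all genes). HMGCS1 passed as higher (0.31), but against numbers 1 to 4 of αWT alone it was at -0.00079 and did not pass. HSD17B12 was the other pathway gene with the smallest adjusted p in both clones (-1.41 in αRes3 and -2.55 in αRes4).

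Set against αMut1, αRes3 had 10 members higher and 2 lower (15.9% and 15.5% of all genes) and αRes4 8 higher and 4 lower (24.7% and 24.6%). MSMO1 was higher by 1.00 ± 0.14 in αRes3 and by 1.27 ± 0.14 in αRes4, and its range lay above that of αMut1 in each. MVD, MVK, the mevalonate kinase, DHCR7 and HMGCS1 also passed as higher in both. FASN, SCD and ACACA were higher in αRes3 (0.58, 0.73 and 0.46), whereas FADS2, ELOVL6 and ACLY were lower in αRes4 (-0.55, -0.42 and -0.32). With numbers 1 to 4 of αMut1 alone, 18 members were higher in αRes3 and 18 in αRes4 (27.8% and 33% of all genes).

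In the β series, βMut1 had lower levels of the enzymes of fatty acid synthesis. Against βWT, 14 of 29 members were lower and 0 higher, beside 20.9% and 23.6% of all genes, with a member median of -0.14 against 0.020 over all genes. DESeq2 also called 0 higher, and 15 members had an unadjusted p below 0.05. The 14 included 6 of 7 fatty acid genes, ELOVL6 being the exception, 2 of 7 of the mevalonate branch, 2 of 3 of squalene and lanosterol, 3 of 8 from lanosterol to cholesterol and INSIG1. FADS1 (chromosome 11, 61799627 to 61829318 in hg38, minus strand) had 768, 628, 582 and 625.1 CPM in βMut1, against 1365, 1320.2, 1331 and 1351 CPM in βWT. All 4 βMut1 libraries lay below the 4 of βWT (-1.04 ± 0.077, adjusted p = 1.28e-08). ACACA had 136, 97.0, 85.6 and 97.4 CPM in βMut1 and 248, 162, 153 and 153 CPM in βWT (-0.78 ± 0.18, adjusted p = 0.00315). ACLY had 505, 354, 298 and 353 CPM in βMut1 and 685, 586, 583 and 619.8 CPM in βWT (-0.71 ± 0.14, adjusted p = 0.00111). Both were highest in number 1 of each line and did not overlap between lines.

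DHCR7, at the end of the sterol pathway, had 211, 166, 155 and 180.3 CPM in βMut1 and 324, 248, 269.8 and 264 CPM in βWT (-0.63 ± 0.11, adjusted p = 0.000276). FASN had 375, 279, 298 and 341 CPM in βMut1 and 753, 392, 409 and 395 CPM in βWT, where replicate 1 of βWT stood well above the other three (-0.59 ± 0.20, adjusted p = 0.0221). LSS, which closes the rings of lanosterol, had 98.5, 70.8, 70.9 and 82.1 CPM in βMut1 and 141, 107, 106 and 114 CPM in βWT (-0.54 ± 0.12, adjusted p = 0.00196). For DHCR7, FASN and LSS the ranges did not overlap. SCD, SQLE, FADS2, MVD, CYP51A1, MVK, NSDHL and INSIG1 were lower, with log2 values between -0.47 and -0.14. Among the other pathway genes 2 were higher and 12 lower of 32, led by ACSL4, an activator of polyunsaturated fatty acids (-0.69), ACSS2, which makes acetyl-CoA from acetate (-0.53), and LBR (-0.42). Without βMut1 replicate 3 the lower count was 8 (13.5% of all genes), and with all libraries numbered 1 left out it was 15 with 3 higher (28.6% and 32.2% of all genes).

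βMut2, the second HS2 clone, departed from βWT in another pattern. It had 10 members higher and 5 lower, beside 27% and 26.2% of all genes. ELOVL6 had 215, 241, 241 and 236 CPM in βMut2 and 101, 119, 125 and 120.1 CPM in βWT, without overlap (1.01 ± 0.075, adjusted p = 4.67e-09). SREBF2 had 224, 186, 195 and 185 CPM in βMut2 and 416, 304, 291 and 306 CPM in βWT (-0.74 ± 0.12, adjusted p = 7.94e-05). FASN had 710.3, 719, 716 and 665 CPM in βMut2, above 3 of the βWT libraries and below the replicate 1 of βWT (0.53 ± 0.20, adjusted p = 0.0304). INSIG1 had 491, 543, 549 and 486 CPM in βMut2 and 355, 376, 390.4 and 360.0 CPM in βWT, without overlap (0.48 ± 0.056, adjusted p = 1.61e-06). IDI1 had 328, 454, 469 and 449.6 CPM in βMut2 and 232, 337, 359 and 311 CPM in βWT, with replicate 1 lowest in each line (0.46 ± 0.14, adjusted p = 0.0103). HSD17B7, MSMO1, ACAT2, HMGCS1, EBP and NSDHL were higher, with log2 values between 0.22 and 0.42, and TM7SF2, MVD, SCD and SQLE lower, with values between -0.41 and -0.20. MVD, SCD and SQLE were also lower in βMut1, at -0.29, -0.47 and -0.42, against the same βWT libraries. The higher count was 6 without βMut2 replicate 2 or 3 (21.1% and 21.6% of all genes). The lower count was 8 without βMut2 replicate 1 (32.7%) and 3 without its replicate 2 or 4 (23.0% and 23.5%).

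Set directly against βMut1, βMut2 had 16 members higher and 2 lower, beside 22.5% and 23.8% of all genes, with a member median of 0.24 against 0.0045 over all genes. FASN (1.12 ± 0.20), FADS1 (1.08 ± 0.077) and ELOVL6 (1.04 ± 0.075) differed most, at adjusted p = 0.00013, 1.39e-09 and 1.53e-09. With the replicate number as a block, the 4 pairs deviating together, 21 were higher and 2 lower (30.0% and 29.7% of all genes). The added members were IDI1 (0.24), MSMO1 (0.22), HSD17B7 (0.26), SREBF1 (0.22) and SCD (0.18). FADS1 had 1516, 1319.7, 1364 and 1294 CPM in βMut2, more than in any βMut1 library. The 16 held 5 of 7 fatty acid genes, 4 of 7 of the mevalonate branch, 2 of 3 of squalene and lanosterol, 4 of 8 from lanosterol to cholesterol and INSIG1, and the 2 were SREBF2 (-0.63) and TM7SF2 (-0.37). Of the other pathway genes, ACSL1 (-1.56) and ACACB (-1.59) were lower and ACSL4 higher (0.61) in βMut2, among 12 higher and 11 lower of 32.

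**Figure D4:**
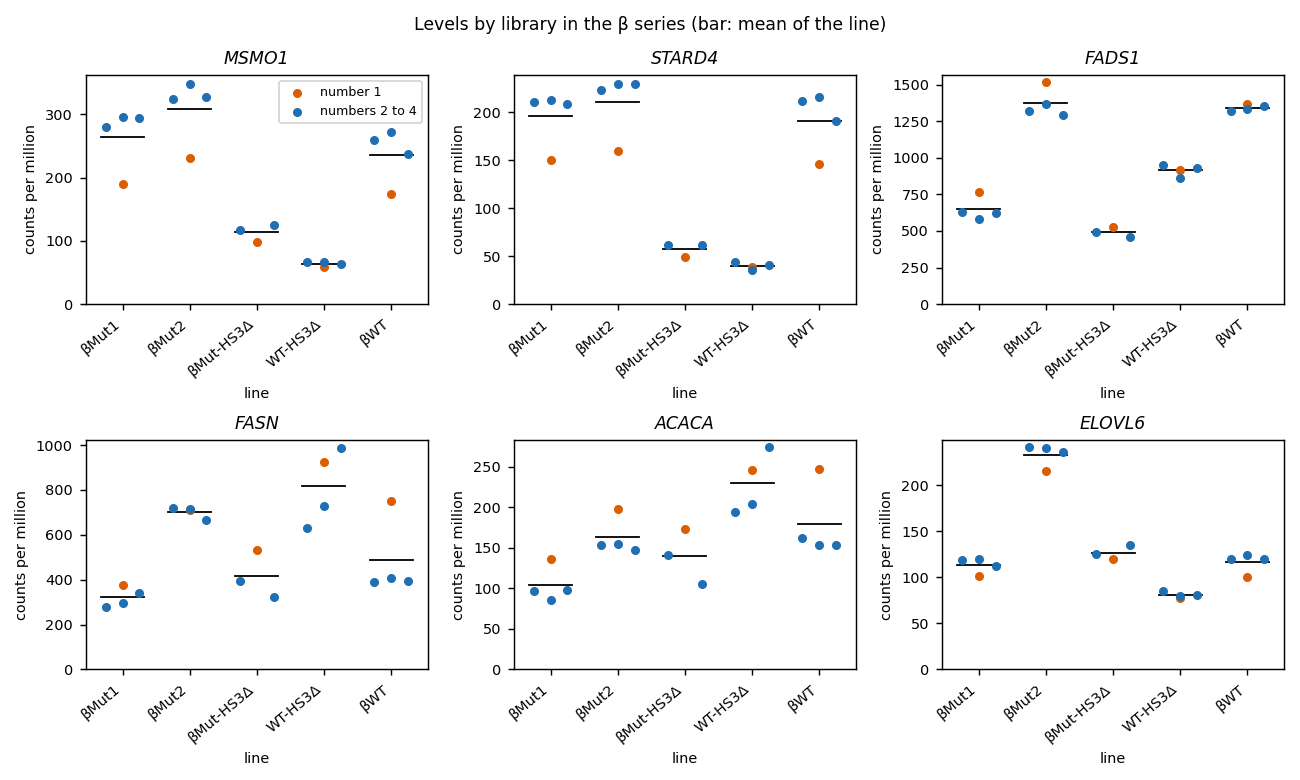
Levels in CPM (y axis, from 0) of 6 genes in every library of the 5 β lines (x axis), orange for replicate number 1, blue for numbers 2 to 4, bars for line means. FADS1 averages 651 CPM in βMut1 and 1373 in βMut2 against 1342 in βWT, and STARD4 averages 57.6 CPM in βMut-HS3Δ and 39.9 in WT-HS3Δ.

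Deletion of HS3 alone went with lower levels of many sterol genes. In WT-HS3Δ against βWT, 15 members were lower and 6 higher, beside 36.1% and 33.1% of all genes, with a member median of -0.24 against -0.029. STARD4, which carries cholesterol between membranes (chromosome 5, 111496033 to 111512590 in hg38, minus strand), had 38.5, 43.9, 35.9 and 41.2 CPM in WT-HS3Δ and 146, 212, 216 and 190.4 CPM in βWT (-2.26 ± 0.15, adjusted p = 1.1e-10). MSMO1 had 59.0, 66.2, 65.9 and 63.0 CPM in WT-HS3Δ and 174, 259, 271 and 238 CPM in βWT (-1.89 ± 0.16, adjusted p = 3.65e-09). The 2 genes did not overlap between the lines, and the medians of their neighbours within 5 Mb were -0.28 and -0.35. HSD17B7, a sterol ketone reductase, had 14.1, 15.9, 15.1 and 14.1 CPM in WT-HS3Δ and 27.5, 40.7, 44.2 and 39.1 CPM in βWT (-1.36 ± 0.18, adjusted p = 1.82e-06). FDFT1 had 404, 429.8, 427 and 403 CPM in WT-HS3Δ and 743, 853, 919.6 and 856 CPM in βWT (-1.02 ± 0.067, adjusted p = 1.16e-10). IDI1 had 171, 193, 183 and 173 CPM in WT-HS3Δ and 232, 337, 359 and 311 CPM in βWT (-0.78 ± 0.14, adjusted p = 6.4e-05). None of these ranges overlapped.

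PMVK, the second kinase of the mevalonate branch, rose instead, with 36.1, 35.0, 39.7 and 32.4 CPM in WT-HS3Δ and 20.8, 18.1, 17.9 and 18.4 CPM in βWT (0.93 ± 0.099, adjusted p = 1.14e-07), and its neighbours had a median of -0.060. FASN (0.75), SREBF1 (0.50), NSDHL (0.41), LSS (0.29) and EBP (0.24) were also higher. FASN overlapped because of βWT replicate 1, with 925, 632, 728 and 988 CPM in WT-HS3Δ against 753, 392, 409 and 395 CPM in βWT. SCD, SREBF2, FADS1, ELOVL6, HMGCS1, INSIG1, SC5D, SQLE, FDPS and CYP51A1 were lower, with log2 values between -0.72 and -0.24. The pair of SREBP genes moved apart, SREBF1 being higher and SREBF2 lower. Of the other pathway genes, 8 were higher and 19 lower of 32. ACSL1 (-2.77) and ACSL4 (-1.57) were lower, and VLDLR, a lipoprotein receptor gene, had at most 0.030 CPM in any WT-HS3Δ library and between 3.28 and 3.95 CPM in βWT.

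With HS3 deleted, the line that also carried the HS2 mutation had higher levels of some sterol genes and lower levels of 3 of 7 fatty acid genes. βMut-HS3Δ had 7 members higher and 7 lower than WT-HS3Δ, beside 15.2% and 15.4% of all genes. FASN had 533, 394 and 321 CPM in the 3 βMut-HS3Δ libraries and 925, 632, 728 and 988 CPM in WT-HS3Δ (-0.98 ± 0.22, adjusted p = 0.00242). FADS1 had 525, 495 and 461 CPM in βMut-HS3Δ and 914, 948, 864 and 930.0 CPM in WT-HS3Δ (-0.89 ± 0.084, adjusted p = 1.37e-07). ACACA had 173, 141 and 105 CPM in βMut-HS3Δ and 246, 195, 203 and 274 CPM in WT-HS3Δ (-0.71 ± 0.20, adjusted p = 0.0119). All 3 were below the range of WT-HS3Δ. MSMO1 was higher, with 97.8, 117 and 126 CPM in βMut-HS3Δ and 59.0, 66.2, 65.9 and 63.0 CPM in WT-HS3Δ (0.84 ± 0.16, adjusted p = 0.000831). ELOVL6 had 120.2, 126 and 135 CPM in βMut-HS3Δ and 78.1, 85.3, 79.8 and 81.1 CPM in WT-HS3Δ (0.65 ± 0.080, adjusted p = 5.03e-06), with a neighbour median of 0.33. SREBF1 was lower, with 107, 83.8 and 80.4 CPM in βMut-HS3Δ and 145, 122, 132 and 139.7 CPM in WT-HS3Δ (-0.58 ± 0.14, adjusted p = 0.00375). LSS, MVD and MVK were also lower, and STARD4, SC5D, SQLE, ACAT2 and TM7SF2 higher. FADS1, ACACA, FASN, LSS, MVD and MVK were lower both here and in βMut1 against βWT. These are 6 of the 14 calls in each comparison and 20.7% of the members, beside 6.13% of the 17535 genes tested in both. The comparisons have no library in common, but βMut-HS3Δ was made from βMut1, so both rest on that clone. SQLE passed in both in opposite directions. The higher count was 3 without βMut-HS3Δ replicate 2 (9.59% of all genes) and 4 without its replicate 3 (8.17%) or WT-HS3Δ replicate 1 or 4 (10.5% and 11.0%). With the replicate number as a block, which not every pair of libraries bears out, the lower count was 12 (26.0% of all genes).

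The interaction compares the difference of βMut-HS3Δ and WT-HS3Δ with that of βMut1 and βWT. In this term the edits and differences between clones cannot be told apart. In all, 4 members passed as higher and 0 as lower, beside 8.94% and 8.41% of all genes. At an unadjusted p below 0.05 there were 8 members, and DESeq2 gave 4 higher and 0 lower. SQLE had the largest term (0.76 ± 0.10, adjusted p = 2.06e-05). Its levels were 313, 306 and 292 CPM in βMut-HS3Δ and 244, 247, 232 and 238 CPM in WT-HS3Δ, and 246, 233, 207 and 230.4 CPM in βMut1 and 293, 303, 325 and 305 CPM in βWT, so the mutant line was the higher of the first pair and the lower of the second. ELOVL6 (0.69), MSMO1 (0.67) and CYP51A1 (0.37) made up the rest. With the replicate number as a block 9 members were higher and 1 lower (15.9% and 15.0% of all genes). With libraries numbered 1 left out, 10 members were higher and 4 lower (14% and 19.6% of all genes), and 12 were lower in βMut-HS3Δ than in WT-HS3Δ (30% of all genes).

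The 2 unedited lines themselves differed in most members. In αWT against βWT, 23 members were lower and 4 higher, beside 32.6% and 33.3% of all genes, with a member median of -0.77 against 0.022. All 8 genes from lanosterol to cholesterol were lower, as were 6 of 7 of the mevalonate branch, 2 of 3 of squalene and lanosterol, 3 of 4 regulators and carriers and 4 of 7 fatty acid genes. Levels in this comparison are CPM with the 12 unedited libraries scaled together, and differ from those given within each series. MSMO1 had 47.9, 55.5 and 59.9 CPM (lowest, median and highest) in αWT and 185, 277, 291 and 254 CPM in βWT (-2.20 ± 0.099, adjusted p = 2.86e-10). STARD4 had 43.3, 51.6 and 66.0 CPM in αWT and 155, 227, 232 and 203 CPM in βWT (-1.97 ± 0.13, adjusted p = 1.25e-08). CYP51A1 had 8.00, 11.6 and 17.6 CPM in αWT and 47.2, 43.4, 50.9 and 48.5 CPM in βWT (-1.90 ± 0.19, adjusted p = 9.63e-07). The αWT ranges of these genes lay below those of βWT, and the neighbours of MSMO1 within 5 Mb had a median of -0.61. HSD17B7 (-1.77), FDFT1 (-1.73), IDI1 (-1.34), HMGCS1 (-1.33), FADS1 (-1.24) and ACAT2 (-1.23) followed. The 4 higher members were FASN, with 874, 1056 and 1204 CPM in αWT and 799, 419, 439 and 422 CPM in βWT (1.02 ± 0.16, adjusted p = 6.52e-05), SREBF1 (0.83), ACACA (0.49) and LSS (0.30). SREBF2 was lower (-0.94 ± 0.084). Within numbers 1 to 4 the counts were again 23 and 4 (37% and 36.3% of all genes). The series and the unedited line cannot be told apart, because nothing in the labels says whether the series were grown or sequenced together.

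WT-HS3Δ and αWT were both set against βWT and so share its libraries, and their values are given side by side. STARD4 was at -2.26 in WT-HS3Δ and -1.97 in αWT, MSMO1 at -1.89 in WT-HS3Δ and -2.20 in αWT, and FDFT1 at -1.02 in WT-HS3Δ and -1.73 in αWT. FASN was at 0.75 in WT-HS3Δ and 1.02 in αWT, and SREBF1 at 0.50 in WT-HS3Δ and 0.83 in αWT. PMVK was at 0.93 in WT-HS3Δ and at -0.074 in αWT, where it did not pass. NSDHL and EBP passed in opposite directions, higher in WT-HS3Δ and lower in αWT.

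**Figure D5:**
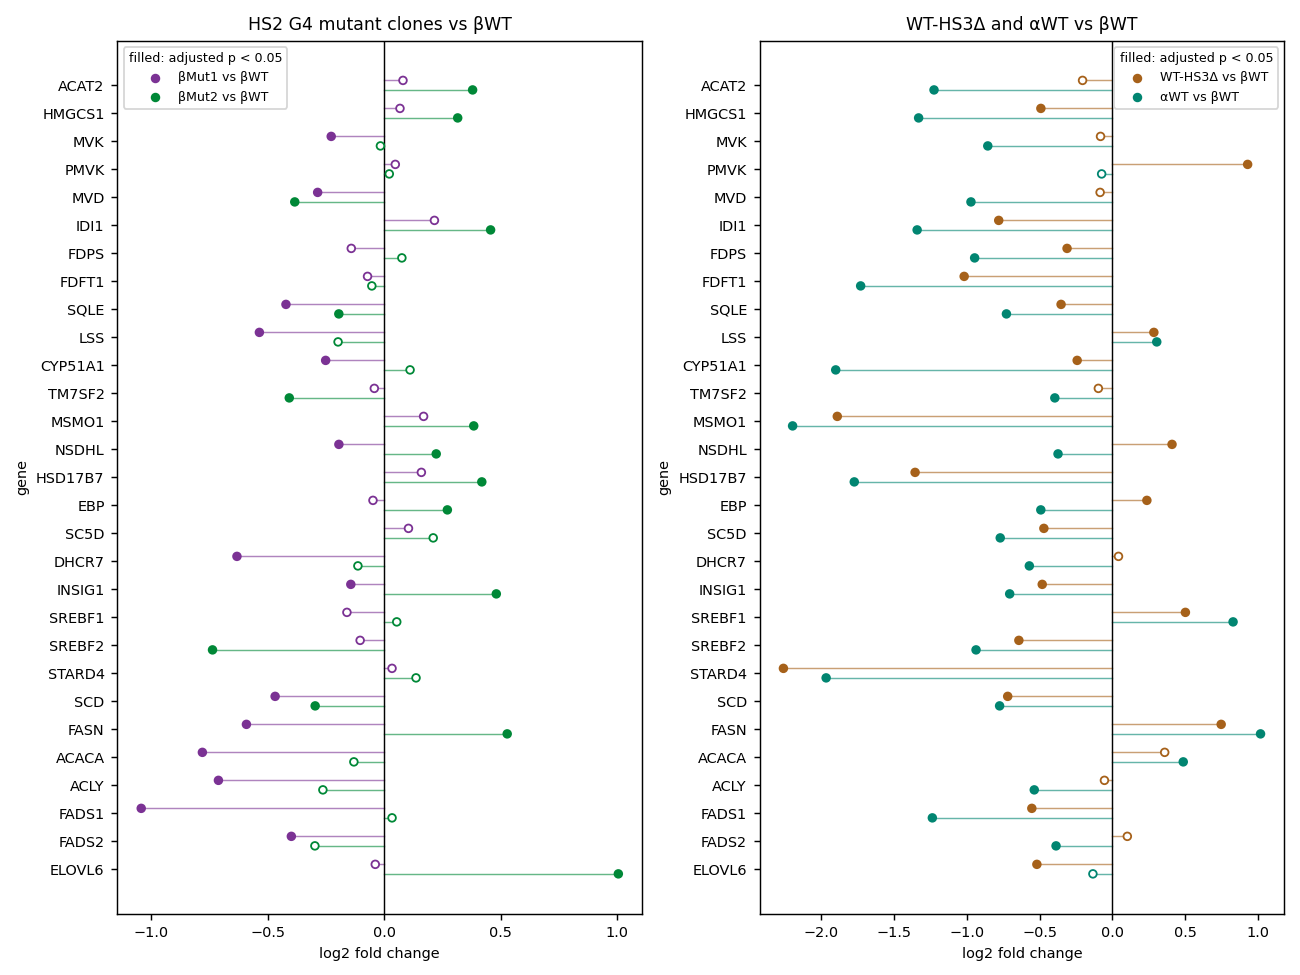
Log2 fold changes of the 29 genes (rows) for βMut1 and βMut2 vs βWT (left) and for WT-HS3Δ and αWT vs βWT (right), with filled points at an adjusted p below 0.05. On the left FADS1 is at -1.04 in βMut1 and 0.033 in βMut2, and on the right 15 points of WT-HS3Δ and 23 of αWT are filled below 0.

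Levels also differed between the replicate sets of single lines, with no edit between them according to the labels. The values of αMut1 take its set labels as given, and whether its sets and those of αRes1 are exchanged was not tested. In αWT, 6 members were higher and 10 lower in numbers 5 to 8 than in numbers 1 to 4, beside 29.8% and 29.1% of all genes. INSIG1 had 167, 181, 212 and 187 CPM in numbers 5 to 8 and 279, 318, 339 and 329 CPM in numbers 1 to 4 (-0.74 ± 0.079, adjusted p = 2.1e-06). ELOVL6 had 84.3, 88.3, 88.0 and 89.1 CPM in numbers 5 to 8 and 138, 151, 150.2 and 149.5 CPM in numbers 1 to 4 (-0.73 ± 0.051, adjusted p = 3.89e-08). HMGCS1, SCD, FADS1, STARD4 and ACACA were lower as well, and CYP51A1, MVD and HSD17B7 were among those higher. In αMut1, 17 were higher and 7 lower in numbers 5 to 7 (28.3% and 30.9% of all genes). CYP51A1 had 13.0, 15.3 and 16.0 CPM in numbers 5 to 7 and 4.05, 5.46, 4.02 and 4.34 CPM in numbers 1 to 4 (1.71 ± 0.12, adjusted p = 6.46e-09). MVD had 116, 122 and 132 CPM in numbers 5 to 7 and 52.4, 66.1, 62.3 and 59.0 CPM in numbers 1 to 4 (1.03 ± 0.072, adjusted p = 1.97e-08). CYP51A1, MVD, LSS, FDPS and NSDHL were higher, and ELOVL6, HMGCS1, STARD4, IDI1 and ACACA lower, in the later numbers of both αWT and αMut1, whereas INSIG1 and HSD17B7 passed in opposite directions in the 2 lines. Without αMut1 replicate 5 the lower count in αMut1 was 3 (27.1% of all genes).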

How the data were processed

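RNA-seq counts per gene were deposited by the authors as raw, unnormalized counts, 1 file per library. Per the labels and methods, poly(A) RNA was made into directional libraries and read as 51 bp pairs, trimmed with cutadapt (quality 20), aligned with bwa to hg38, cleared of duplicates, filtered with SAMtools 1.15.1 and counted with featureCounts on GENCODE genes, and the strand and overlap settings are not given in the sources used here. Totals were 4270215 to 48671570 counts per library (median 27764236), and the common variation between libraries was 6.47% to 20.3% (biological coefficient of variation) over the fits. Of 62696 gene IDs, 62625 were named from GENCODE 44. No 2 libraries of the same line were identical within sampling noise, and libraries of different lines were not compared in this way.

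The α series (43 libraries), the β series (19) and the unedited lines (12) were fitted separately with edgeR 4.0.16 (limma 3.58.1, R 4.3.3), keeping genes with a mean of at least 10 counts, with TMM scaling and the quasi-likelihood test. P-values were adjusted by Benjamini-Hochberg over all genes tested, and an adjusted p below 0.05 passed. SE is the log2 fold change divided by the square root of F. Nothing says that libraries of a line came from separate cultures, so p-values measure only the spread between these libraries. The tests were checked on simulated counts, where edgeR recovered 90.9% of genes changed by 1.0 and 51.0% of those changed by 0.5 (log2) in βMut1 vs βWT. In αWT vs βWT these were 74.75% and 33.3%. Simulated libraries varied independently, so the check does not cover shifts shared by libraries of a set or number.

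The members and the other pathway and marker lists were chosen with earlier results of these data known. All members are accounted for by role, values by library are given for up to 6 passing members with the largest fold changes per comparison and for members passing in both mutant clones of a series, and up to 3 other pathway genes by smallest adjusted p, of which 1 is not reported here. Genes named outside this rule were chosen after their values were seen. Alternatives were DESeq2 1.42.0, an added fold threshold of 0.5 (log2), no filter, a replicate block, each set of numbers alone and leaving out each library. Same-numbered libraries deviated together from their line means in every pair for βMut2 and βMut1 (correlations 0.127 to 0.760). So did those of αRes2 and αMut1 (0.125 to 0.256), but around the mean of each line and set their correlations were -0.210 to 0.105. Pairing within the sets is thus not borne out for αRes2 and αMut1. The pairing rests on the numbers in the titles and these correlations. Promoter sequences are from RefSeq, GRCh38.p14.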

Additional observations from a re-analysis of the deposited data

Results flagged for a closer look

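In 28 of 319 line and member combinations with 4 to 10 libraries, the most extreme library stood far from the rest of its line, and chance gives about 1 in 20. Most of them were β libraries numbered 1. In βMut1 replicate 1, ACAT2 (309.5 CPM, others 372 to 383), IDI1 (273, others 381 to 403), MSMO1 (189.8, others 279 to 297), SC5D (58.8, others 74.9 to 76.5) and STARD4 (151, others 209 to 213) were low and TM7SF2 (25.0, others 21.6 to 22.0) was high. In βMut2 replicate 1, IDI1 (328, others 449.6 to 469), HSD17B7 (35.0, others 54.6 to 57.8), SC5D (60.6, others 81.6 to 84.1) and STARD4 (159, others 223 to 229.7) were low, and PMVK (22.9, others 17.2 to 18.1), LSS (115, others 95.6 to 98.8), ACACA (197, others 147 to 155) and ACLY (664, others 447 to 481) were high. In βWT replicate 1, PMVK (20.8, others 17.9 to 18.4), SREBF1 (129, others 81.5 to 86.7), SREBF2 (416, others 291 to 306), SCD (1266, others 1014 to 1021), FASN (753, others 392 to 409) and ACACA (248, others 153 to 162) were high.

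The other libraries were βMut1 replicate 3 for CYP51A1 (34.9 CPM, others 37.9 to 38.3), βMut2 replicate 4 for FASN (665, others 710.3 to 719), αMut2 replicate 1 for NSDHL (54.1, others 63.1 to 64.0) and FADS2 (37.1, others 41.5 to 42.04), αRes1 replicate 1 for ACLY (497, others 422 to 451), αRes3 replicate 1 for EBP (43.3, others 40.3 to 40.7), αRes4 replicate 1 for LSS (156, others 177 to 180.3), and αRes2 replicate 3, the library with the fewest counts, for MVK (14.6, others 28.3 to 38.8).

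Effects that differed between groups by a test of the difference were of 3 kinds. The difference of βMut-HS3Δ and WT-HS3Δ departed from that of βMut1 and βWT for SQLE (0.76), ELOVL6 (0.69), MSMO1 (0.67) and CYP51A1 (0.37 on the log2 scale). Whether this came from the edits or from differences between clones was not tested. FASN (1.12), INSIG1 (0.62) and NSDHL (0.42) passed in opposite directions in βMut2 and βMut1, the values being the direct difference of βMut2 and βMut1. The effect of αMut1 in numbers 5 to 7 minus that in numbers 1 to 4 was 1.27 for NSDHL, 1.16 for INSIG1, 0.94 for CYP51A1, 0.76 for SCD, 0.70 for EBP, 0.65 for FDPS, 0.57 for SREBF1, 0.57 for FADS2, 0.55 for PMVK, 0.52 for MVK, 0.47 for FADS1, 0.42 for DHCR7, 0.39 for SREBF2, 0.36 for ACLY, 0.35 for HMGCS1, 0.34 for SQLE, 0.32 for TM7SF2 and -0.68 for HSD17B7.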

How the results depend on the processing

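Among recounts of members under an alternative, 346 stayed within 1.5 times the main count and 94 did not. Of the planned values for single members, 2290 kept their direction and side of the threshold, 277 kept the direction but no longer passed and 8 turned round. With DESeq2, the lower count in αMut2 vs αMut1 was 5 and the higher count in αRes1 vs αMut1 was 2. Requiring a change above 0.5 (log2) as well gave, as higher and lower, 4 lower in αMut1 vs αWT, 3 lower in αMut2 vs αWT, 1 and 4 in αRes1 vs αWT, 1 and 3 in αRes2 vs αWT, 2 and 5 in αRes3 vs αWT, 0 higher in αRes4 vs αWT, 2 and 1 in αMut2 vs αMut1, 0 higher in αRes1 vs αMut1, 2 higher in αRes2 vs αMut1, 5 and 1 in αRes4 vs αMut1, 6 lower in βMut1 vs βWT, 2 and 1 in βMut2 vs βWT, 6 and 1 in βMut2 vs βMut1, 3 and 9 in WT-HS3Δ vs βWT, 3 higher in βMut-HS3Δ vs WT-HS3Δ, 2 higher in αWT vs βWT, 3 and 5 between the αWT sets and 9 and 1 between the αMut1 sets. The share of all genes passing with this added threshold was not counted. Without the filter, the lower count was 9 in αMut1, 2 in αMut2 and 5 in αRes1 vs αWT (7.96%, 3.87% and 6.65% of all genes) and 1 in αMut2 vs αMut1 (7.77%). The higher count was 5 in αRes3 and 0 in αRes4 vs αWT (12.5% and 14.2%), 1 in αRes2 vs αMut1 (1.91%), 4 in βMut-HS3Δ vs WT-HS3Δ (5.02%) and 2 for the interaction (2.58%). The causes were not tested.

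With the replicate number as a block, the higher count was 2 in αMut1 vs αWT (23.9% of all genes), 4 in αMut2 vs αMut1 (13.7%) and 3 in αRes1 vs αMut1 (3.28%). It was 2 in βMut1 vs βWT (31.6%) and 9 for the interaction (15.9%). The lower count was 1 in αRes2 vs αMut1 (12.4%), 8 in βMut2 vs βWT (32.6%), 12 in βMut-HS3Δ vs WT-HS3Δ (26.0%) and 1 for the interaction (15.0%). In βMut2 vs βMut1, where all 4 pairs deviated together, the block gave 21 higher and 2 lower (30.0% and 29.7% of all genes). In αRes2 vs αMut1 the pairs deviated together from the line means (0.125 to 0.256) but not from those of line and set (-0.210 to 0.105). In the other comparisons not every pair correlated above 0.1 (-0.444 to -0.206 in αRes1 vs αMut1, 0.076 to 0.550 in βMut1 vs βWT). Libraries numbered 1 nevertheless deviated together in βMut1 vs βWT (0.550) and βMut2 vs βWT (0.510). Within numbers 1 to 4, the lower count was 23 in αMut1, 11 in αMut2 and 16 in αRes2 vs αWT, and 2 in αRes1 and 4 in αRes2 vs αMut1. The higher count there was 4 in αRes1 and 1 in αRes2 vs αWT, and 15 in αMut2, 20 in αRes1, 11 in αRes2, 18 in αRes3 and 18 in αRes4 vs αMut1. Within numbers 5 to 8, αMut1 had 6 higher and 7 lower, αRes1 6 and 17 and αRes2 10 higher than αWT, and αRes1 had 5 higher and 15 lower and αRes2 3 lower than αMut1. Members that turned round were MVK (0.0015), FDPS (0.036) and SCD (0.11) in αMut1 and SQLE (0.051) and ACLY (0.070) in αRes2 vs αWT within numbers 5 to 8, and HSD17B7 in αRes1 (0.027) and HMGCS1 in αRes2 (-0.017) and αRes4 (-0.00079) vs αWT within numbers 1 to 4, all on the log2 scale and none passing. With β libraries numbered 1 left out, chosen after seeing the data, 3 members were higher in βMut1 and 8 lower in βMut2 vs βWT, 12 were lower in βMut-HS3Δ vs WT-HS3Δ, and the interaction had 10 higher and 4 lower.

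Leaving out 1 library at a time gave 4 lower in αMut2 vs αWT, 7 to 8 higher and 8 to 9 lower in αRes3 vs αWT, 2 to 4 higher and 7 lower in αRes4 vs αWT, 3 to 5 and 1 to 3 in αMut2 vs αMut1, 10 and 2 in αRes3 vs αMut1, 7 to 8 and 3 to 4 in αRes4 vs αMut1, 8 to 15 lower in βMut1 vs βWT, 6 to 10 and 3 to 8 in βMut2 vs βWT, 13 to 17 and 2 in βMut2 vs βMut1, 5 to 7 and 15 to 16 in WT-HS3Δ vs βWT, 3 to 7 and 5 to 9 in βMut-HS3Δ vs WT-HS3Δ, 2 to 6 and 0 to 2 for the interaction, 3 to 4 and 23 in αWT vs βWT, 4 to 9 and 9 to 12 between the αWT sets and 16 to 19 and 3 to 6 between the αMut1 sets. Without αRes2 replicate 3, the shallowest library, αRes2 had 3 higher and 5 lower than αWT and 7 higher and 0 lower than αMut1. The higher count in βMut-HS3Δ vs WT-HS3Δ was 3 without βMut-HS3Δ replicate 2, and 4 without its replicate 3 or WT-HS3Δ replicate 1 or 4. The interaction had 2 higher without βMut-HS3Δ replicate 2, WT-HS3Δ replicate 3 or 4 or βWT replicate 3, and 2 lower without βWT replicate 1. In simulated counts edgeR recovered 81.6% of genes changed by 1.0 and 38.4% of those changed by 0.5 (log2) in αMut2 vs αWT. The variation between libraries was 20.3% in the fit of the α series and 7.39% between the αWT sets.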
